A study of Yarrowia lipolytica with 9 samples.

Results

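The transcripts described are the 16 rows of the expression table whose identifier begins with YalifM, the prefix used for the mitochondrial genome of the yeast *Yarrowia lipolytica*, out of 6170 rows in all. Of these, 14 carry the prefix YalifMp and 2 the prefix YalifMr. All 16 reached at least 1 CPM in at least 3 libraries, as did 6165 rows of the whole table. CPM here are reads scaled by an effective library size, so the totals of the libraries still differ. The series was made to see whether medium pH alters how much citric acid and lipid this oleaginous yeast makes. Its 9 RNA-seq libraries came from strain W29 grown in bioreactors held at pH 2.0, pH 4.0 or pH 6.0, 3 bioreactors per pH, and harvested at hour 50. All 3 groups had the same medium, with glucose at 50 g/L, ammonium sulfate at 1 g/L, yeast extract at 1.5 g/L and yeast nitrogen base at 1.7 g/L. The replicates are called A, B and C as in the labels and are taken as separate cultures. There is 1 strain and 1 harvest time, so all results hold for that strain at that hour.

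Mitochondria keep a small genome of their own, transcribed by a separate RNA polymerase. In fungi it encodes a few membrane subunits of the respiratory chain and of ATP synthase, together with ribosomal and transfer RNAs of the mitochondrial ribosome, while most mitochondrial proteins come from nuclear genes. *Y. lipolytica* depends on respiration for growth and, unlike baker's yeast, has a proton-pumping NADH dehydrogenase (complex I) with several subunits encoded in mitochondrial DNA. The sources used here do not pair the identifiers with gene names. By identifier, the reference table of 8689 nuclear genes on 6 chromosomes matched 0 rows of the whole expression table, nuclear ones included, and so 0 of the 16. The rows are therefore called by their identifiers and given no role, and no lengths or positions are stated. A difference in CPM between 2 rows is a difference in reads, not in level per length.

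Transcripts of the mitochondrial genome were lower at pH 6.0 than at either acidic pH, about 3-fold in summed CPM. The mean summed CPM was nearly the same at pH 2.0 and pH 4.0. In sum the 16 rows came to 2323 ± 1190 CPM at pH 2.0, 2259 ± 541 CPM at pH 4.0 and 777.5 ± 194 CPM at pH 6.0 (SD, n = 3 each). The ratio of means was 2.99 for pH 2.0 over pH 6.0, 2.91 for pH 4.0 over pH 6.0 and 0.972 for pH 4.0 over pH 2.0. It depends on the scaling: as shares of all reads of a library, the same ratios were 3.47, 2.91 and 0.837. No test is given for the sum. The single libraries held 3558, 2236 and 1174 CPM at pH 2.0 (replicates A, B and C), 2883, 1967 and 1925 CPM at pH 4.0, and 922, 854 and 557 CPM at pH 6.0. All pH 6.0 libraries lay below all others, whereas the pH 2.0 libraries spanned the range of pH 4.0 and went past it on both sides.

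**Figure D1:**
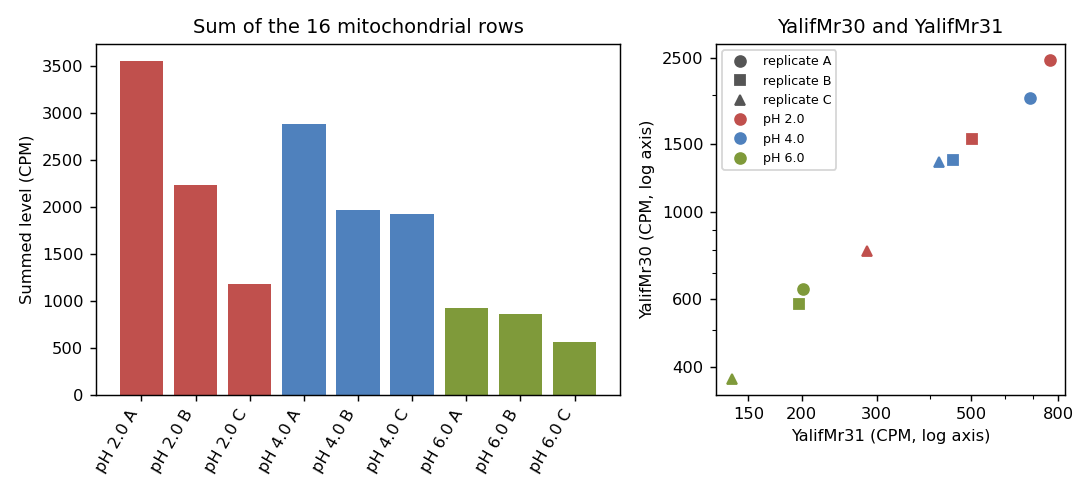
Left, summed level of the 16 mitochondrial rows (CPM) in each of the 9 libraries, coloured by pH. The bars run from 557 CPM in pH 6.0 replicate C to 3558 CPM in pH 2.0 replicate A. Right, YalifMr30 against YalifMr31 (CPM, both axes logarithmic), 1 point per library, with shape for the replicate letter; the points lie close to 1 line, at a ratio of 2.73 to 3.23.

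The rows took a small part of each library. At pH 2.0 replicates A, B and C gave them 0.393%, 0.245% and 0.130% of the recovered reads. At pH 4.0 the shares were 0.263%, 0.190% and 0.191%, and at pH 6.0 they were 0.0876%, 0.0808% and 0.0530%. The widest 95% Wilson interval of these shares reached from 0.390% to 0.396%, so counting error is small against the differences between libraries (intervals cover counting error only). Depth was 12974822 to 17701766 reads per library, and 8134 to 58077 of them fell on the 16 rows. At pH 6.0 the depth was 15360709 to 17701766 reads, at pH 4.0 12974822 to 15667101 and at pH 2.0 13426731 to 16070308. The labels name a stranded library kit started from total RNA and call the work mRNA profiling, without saying whether poly(A) tails were selected or ribosomal RNA was removed. In baker's yeast, mitochondrial mRNAs lack poly(A) tails, so such a step bears on how much of these transcripts is caught; its part was not tested. In bulk libraries, fewer cells holding these transcripts and less of them per cell cannot be told apart.

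The 2 YalifMr rows held most of the mitochondrial reads. YalifMr30 was at 2466, 1544 and 795 CPM at pH 2.0, at 1966, 1366 and 1345 CPM at pH 4.0, and at 636, 582 and 374 CPM at pH 6.0. YalifMr31 was at 765, 502 and 285 CPM at pH 2.0, at 686, 452 and 420 CPM at pH 4.0, and at 202, 197 and 137 CPM at pH 6.0. For both, each pH 6.0 library was lower than each library of the other groups, and pH 2.0 replicate C was the lowest of the remaining 6. Both fell from pH 4.0 to pH 6.0, YalifMr30 by 1.57 in log2 units (SE 0.35, adjusted p = 0.00406) and YalifMr31 by 1.52 (SE 0.31, adjusted p = 0.00261). Both also fell between pH 2.0 and pH 6.0, YalifMr30 by 1.48 (SE 0.35, adjusted p = 0.00301) and YalifMr31 by 1.44 (SE 0.31, adjusted p = 0.00184). These and the following fold changes are differences of log2(CPM + 1) tested with limma in 1 fit over the 9 libraries, with Benjamini-Hochberg adjustment over 6165 genes; a row is called at an adjusted p under 0.05.

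The 14 YalifMp rows had far fewer reads, 12 to 955 per row and library, and mean levels from 2.01 to 35.5 CPM at pH 2.0, from 2.28 to 33.4 CPM at pH 4.0 and from 1.04 to 12.6 CPM at pH 6.0. YalifMp05 was at 58.5, 30.7 and 17.2 CPM at pH 2.0, at 45.9, 24.0 and 30.4 CPM at pH 4.0, and at 14.9, 14.3 and 8.22 CPM at pH 6.0. YalifMp03 was at 53.2, 30.1 and 14.8 CPM at pH 2.0, at 38.1, 24.8 and 28.8 CPM at pH 4.0, and at 17.5, 13.8 and 6.64 CPM at pH 6.0. The pH 6.0 values of YalifMp05 were below all others, while for YalifMp03 the highest pH 6.0 library lay above pH 2.0 replicate C. YalifMp14 was at 34.7, 23.3 and 11.1 CPM at pH 2.0, at 24.1, 17.8 and 18.5 CPM at pH 4.0, and at 7.07, 7.74 and 5.61 CPM at pH 6.0. YalifMp21 was at 37.1, 22.1 and 11.5 CPM at pH 2.0, at 22.9, 14.4 and 15.2 CPM at pH 4.0, and at 9.69, 9.39 and 5.82 CPM at pH 6.0. In both rows the 3 libraries at pH 6.0 were the lowest of the 9. YalifMp07 was at 30.6, 17.8 and 8.83 CPM at pH 2.0, at 23.7, 15.96 and 16.7 CPM at pH 4.0, and at 8.38, 6.88 and 3.83 CPM at pH 6.0. YalifMp20 was at 31.7, 18.3 and 6.92 CPM at pH 2.0, at 17.8, 12.8 and 11.1 CPM at pH 4.0, and at 7.67, 5.56 and 3.08 CPM at pH 6.0. YalifMp20 had the widest range of the 16 rows, 10.3-fold between its highest and lowest library, and its pH 6.0 replicate A lay above its pH 2.0 replicate C. Of the remaining rows, YalifMp27 ranged from 4.22 to 17.95 CPM at pH 2.0, from 9.35 to 14.45 CPM at pH 4.0 and from 2.33 to 4.93 CPM at pH 6.0, and YalifMp09 from 1.18 to 5.21, from 1.79 to 3.05 and from 0.958 to 1.125 CPM.

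**Figure D2:**
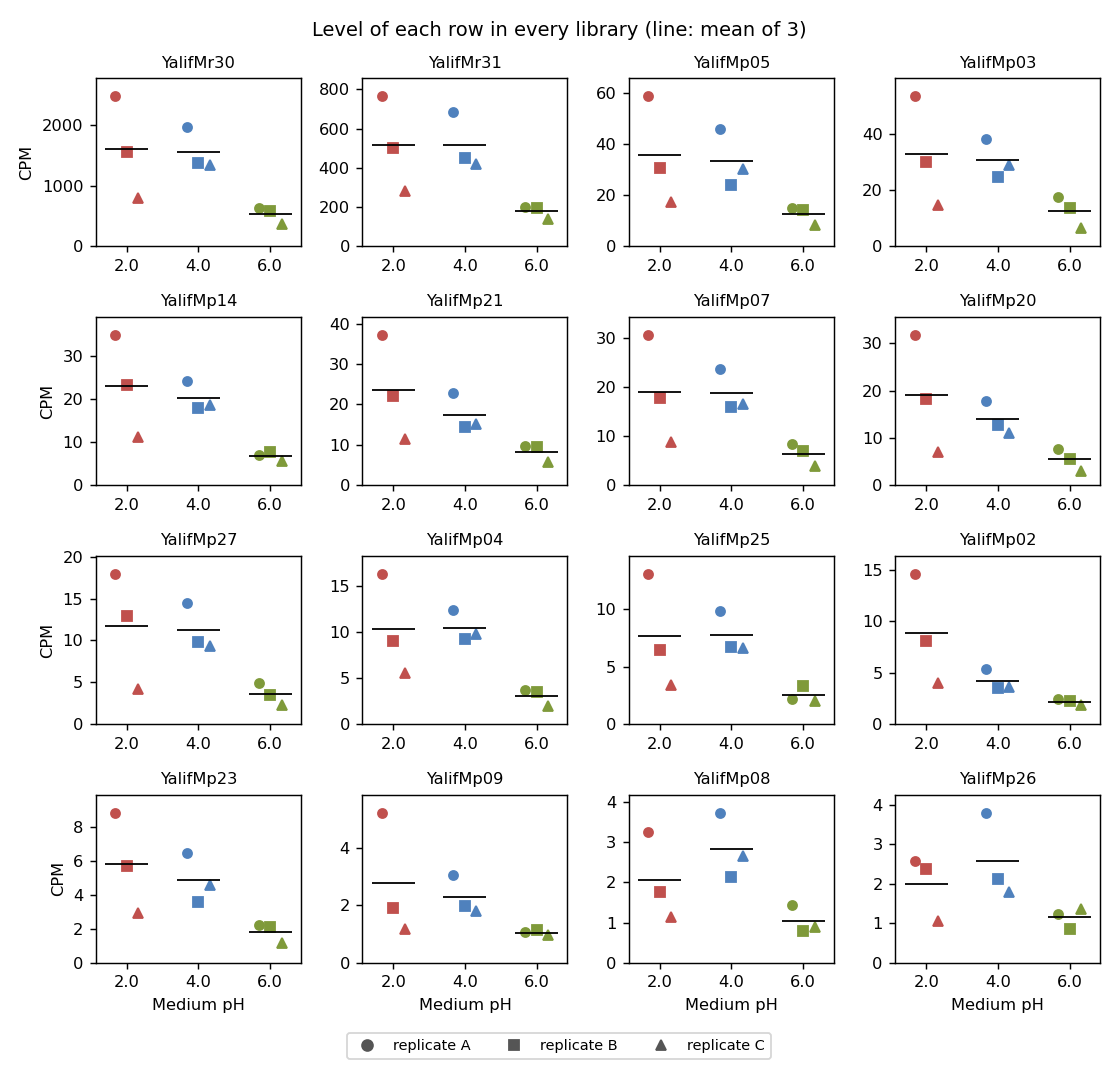
Level of each of the 16 rows (CPM, linear axes from 0, each row on its own scale) against the pH of the medium, 1 point per library with shape for the replicate letter; the line is the mean of 3. In 16 of 16 panels the 3 points at pH 6.0 lie below the 3 at pH 4.0, and the points at pH 2.0 are the most spread in most panels.

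Compared with pH 2.0, 13 of the 16 rows were called lower at pH 6.0 and none higher, against 37.9% of all genes called lower and 35.1% called higher (73.0% in either direction). The median log2 fold change of the 16 rows was -1.32, and that of all genes -0.04. Among the called rows the values ran from -1.50 for YalifMp14 (SE 0.31, adjusted p = 0.00142) and -1.49 for YalifMp02 (SE 0.33, adjusted p = 0.00202) to -1.19 for YalifMp23 (SE 0.31, adjusted p = 0.00533) and -1.16 for YalifMp25 (SE 0.35, adjusted p = 0.0110). YalifMp23 was at 8.82, 5.70 and 2.93 CPM at pH 2.0, at 6.48, 3.58 and 4.59 CPM at pH 4.0, and at 2.20, 2.12 and 1.16 CPM at pH 6.0. YalifMp25 was at 13.1, 6.44 and 3.43 CPM at pH 2.0, at 9.83, 6.69 and 6.62 CPM at pH 4.0, and at 2.20, 3.31 and 1.99 CPM at pH 6.0. In both rows pH 6.0 and pH 2.0 did not overlap, but their nearest libraries were less than 1 CPM apart. Over the 16 rows, the groups did not overlap in 11, all lower at pH 6.0, against 40.3% of all genes.

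The 3 rows not called by limma for pH 6.0 against pH 2.0 were those with the fewest reads, YalifMp08 (log2 -0.53, SE 0.26, adjusted p = 0.0824), YalifMp09 (log2 -0.73, SE 0.32, adjusted p = 0.0614) and YalifMp26 (log2 -0.44, SE 0.25, adjusted p = 0.138). Their fold changes are understated by the added 1 CPM: with an added 0.25 CPM they were -0.76, -0.98 and -0.62 and still not called (adjusted p = 0.0706, 0.0527 and 0.130). On the recovered reads YalifMp09 was called lower by edgeR (log2 -1.38, adjusted p = 0.0310) and by DESeq2 (log2 -1.36, adjusted p = 0.0136), while neither tool called YalifMp08 or YalifMp26. With equal library totals limma called YalifMp08 (adjusted p = 0.0339) and YalifMp09 (adjusted p = 0.0293), and without pH 2.0 replicate C it called all 3. The lowest count was that of YalifMp08 in pH 6.0 replicate B, 12 reads or 0.794 CPM, with an exact Poisson 95% interval of 0.410 to 1.39 CPM.

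Compared with pH 4.0, 14 rows were called lower at pH 6.0 and none higher, against 25.8% of all genes called lower and 25.7% called higher (51.5% in either direction). The median was -1.30 for the 16 rows and -0.0030 for all genes. In 16 of 16 rows every pH 6.0 library lay below every pH 4.0 library, a separation that 30.5% of all genes had in the same direction. Beside YalifMr30, YalifMp04 fell most, by 1.54 (SE 0.31, adjusted p = 0.00216), from 12.4, 9.27 and 9.81 CPM to 3.69, 3.44 and 1.92 CPM; at pH 2.0 it was at 16.3, 9.02 and 5.57 CPM. The least of the called rows were YalifMp08, by 0.90 (SE 0.26, adjusted p = 0.0135), and YalifMp26, by 0.69 (SE 0.25, adjusted p = 0.0418). YalifMp08 went from 3.72, 2.12 and 2.65 CPM to 1.43, 0.794 and 0.890 CPM, and was at 3.25, 1.76 and 1.125 CPM at pH 2.0. YalifMp26 went from 3.798, 2.12 and 1.79 CPM to 1.25, 0.860 and 1.37 CPM, 23 to 51 reads against 13 to 21, and was at 2.57, 2.37 and 1.07 CPM at pH 2.0. In YalifMp08 and YalifMp26 the pH 2.0 libraries overlapped both other groups. YalifMp02 (log2 -0.68, adjusted p = 0.107) and YalifMp09 (log2 -0.66, adjusted p = 0.109) were not called in the fit of all 9 libraries.

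The number of calls in this comparison depended on the libraries in the fit. Without pH 4.0 replicate A, 6 rows were called, and without pH 6.0 replicate C, 7. Without pH 2.0 replicate A 16 were called, as were 16 in a fit of the pH 4.0 and pH 6.0 libraries alone. The main fit takes 1 spread for all groups, and pH 2.0 was the most spread. The median coefficient of variation of the rows was 55.9% at pH 2.0, 25.1% at pH 4.0 and 29.0% at pH 6.0. YalifMr30, YalifMr31, YalifMp04, YalifMp07, YalifMp14 and YalifMp25 were called lower at pH 6.0 than at pH 4.0 in every fit that left out 1 library. Against pH 2.0, between 10 and 16 rows were called in these fits.

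Between pH 2.0 and pH 4.0 no row was called in either direction by limma, against 32.6% of all genes called lower and 30.8% called higher at pH 4.0 (63.4% in either direction). At an unadjusted p under 0.05 there was 1 row, YalifMp02, and edgeR and DESeq2 on the recovered reads each called that row lower at pH 4.0. The median was 0.07 for the 16 rows and -0.02 for all genes, and the values ran from -0.81 to 0.37, with standard errors of 0.25 to 0.44. The difference of YalifMr30 was 0.08 (SE 0.35), smaller than its error. A missed threshold with errors of this size does not show that the levels were equal. In no row did the 2 groups separate; the groups of 35.3% of all genes did with pH 4.0 lower, and those of 32.3% with pH 4.0 higher.

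**Figure D3:**
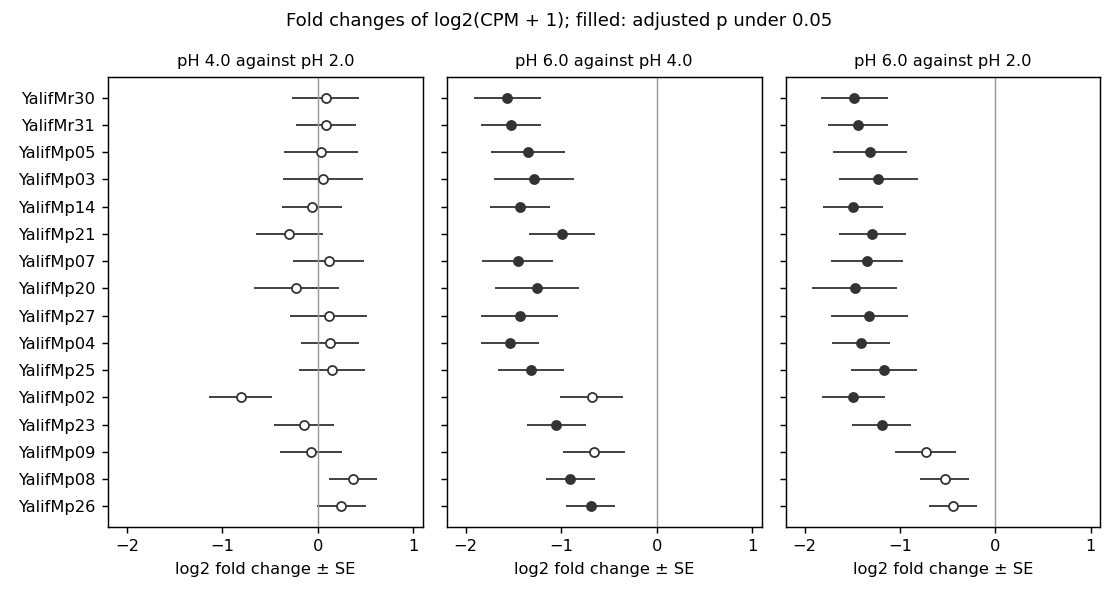
Log2 fold change of log2(CPM + 1) with its standard error for each row in the 3 pairwise comparisons; filled points are called at an adjusted p under 0.05. None of 16 is filled for pH 4.0 against pH 2.0, 14 for pH 6.0 against pH 4.0 and 13 for pH 6.0 against pH 2.0, all of them below 0.

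The F test over the 3 pH values called 14 of the 16 rows, against 84.0% of all genes, a share near that background; without pH 6.0 replicate C it called 8. The change from pH 4.0 to pH 6.0 differed from the change from pH 2.0 to pH 4.0 in 4 rows, each with the second step the lower, against 24.3% of all genes in that direction, 26.1% in the other and 50.4% in all. For the 16 rows this is a share near the background of that direction, and 0 were called in the other direction. The median difference of steps was -1.355 for the 16 rows and 0.035 for all genes, with standard errors of 0.441 to 0.768 for the rows. The 4 called rows were YalifMp04 (difference of steps -1.66, SE 0.53, adjusted p = 0.0245), YalifMr31 (-1.61, SE 0.54, adjusted p = 0.0310), YalifMp08 (-1.27, SE 0.44, adjusted p = 0.0350) and YalifMr30 (-1.65, SE 0.61, adjusted p = 0.0429). This count depended on which library was present: it was 12 without pH 2.0 replicate A, 0 without pH 4.0 replicate A, 2 without pH 4.0 replicate B, 1 without pH 4.0 replicate C, 2 without pH 6.0 replicate B and 1 without pH 6.0 replicate C.

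The rows varied between replicates of the same pH more than most genes did, and they did so together. At pH 2.0 the highest library of a row was 2.41 to 4.59 times the lowest, at pH 4.0 1.33 to 2.12 times and at pH 6.0 1.17 to 2.63 times. Replicate A was the highest library for 16 of 16 rows at pH 2.0, for 16 at pH 4.0 and for 12 at pH 6.0. Replicate C was the lowest for 16 rows at pH 2.0, for 7 at pH 4.0 and for 14 at pH 6.0. The labels do not say that a letter marks a shared batch or day. The pH 2.0 libraries A, B and C had 14767504, 13426731 and 16070308 reads, an order other than that of their levels. Those of pH 4.0 had 14700470, 15667101 and 12974822 reads, for sums of 2883, 1967 and 1925 CPM, also another order. At pH 6.0 the depths of 17701766, 15973795 and 15360709 reads followed the order of the sums, 922, 854 and 557 CPM. A part of depth in these differences was not tested.

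The SD of log2(CPM + 1) between replicates of a pH was 0.36 to 0.70 for the 16 rows, with a median of 0.52, against a median of 0.13 and an upper quartile of 0.18 over all genes. Between 96.1% and 99.6% of all genes had a lower SD than the row in question. Low levels alone raise such an SD, so each row was also set beside the genes within 0.5 of its mean log2 level, at least 169 genes. Of those, 86.5% to 99.4% had a lower SD. Counting error was smaller than this spread in most rows. At pH 2.0 the coefficient of variation over the 3 libraries was 40.7% to 77.7%, and that of counting alone 0.624% to 17.7%. At pH 6.0 the spread exceeded counting error in 13 rows, the others being YalifMp02 (13.8% against 17.1%), YalifMp09 (8.06% against 24.7%) and YalifMp26 (22.9% against 23.6%).

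**Figure D4:**
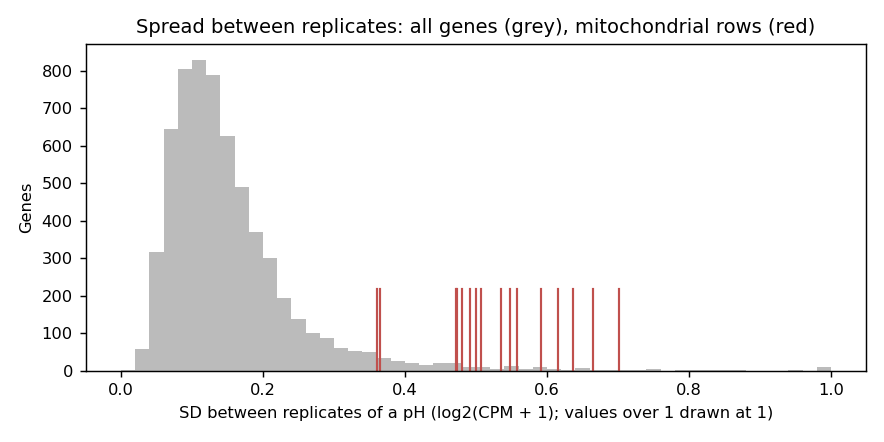
SD of log2(CPM + 1) between replicates of a pH, pooled over the 3 pH values. The grey histogram counts all 6165 genes, with values over 1 drawn at 1, and the red lines mark the 16 mitochondrial rows, which lie between 0.36 and 0.70, to the right of the bulk of the genes around 0.13.

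After each row's mean at each pH had been taken away, the remaining deviations over the 9 libraries correlated between rows at r = 0.57 to 0.99, with a median of 0.94 over the 120 pairs. With YalifMr30, r was 0.70 for YalifMp26 and at least 0.87 for the other rows. All points of such a pair come from the same 9 libraries and share their scaling, so this is a description. Since the rows moved together, counts of rows called or not overlapping are not counts of separate observations. How far such counts lie from the shares of all genes was not tested. The row YalifMp26 is one of those with the fewest reads.

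The make-up of the mitochondrial reads changed far less than their amount. The 2 YalifMr rows held 90.8% to 92.4% of the summed CPM in every library, while the sum itself ranged 6.39-fold. The ratio of YalifMr30 to YalifMr31 was 3.03 ± 0.22 at pH 2.0, 3.03 ± 0.17 at pH 4.0 and 2.95 ± 0.21 at pH 6.0 (SD, n = 3 each), so the pH values did not differ beyond the spread between replicates. The sum of the YalifMp rows was 204 ± 117, 180 ± 44.6 and 68.3 ± 20.2 CPM in order of rising pH. Its ratio between pH 2.0 and pH 6.0, 2.99, was that of the YalifMr rows to 3 digits; between pH 4.0 and pH 6.0 it was 2.64, against 2.93.

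When each YalifMp row was expressed as a share of the YalifMp sum of its library, the highest share over the 9 libraries was between 1.23 and 3.82 times the lowest, with a median of 1.48. These shares are not affected by the scaling between libraries, but they add up to 100%, so a rise in 1 row lowers the others. At pH 2.0 YalifMp02 held 4.45%, 4.24% and 4.25% of the YalifMp sum. At pH 4.0 it held 2.32%, 2.36% and 2.23%, and at pH 6.0 2.89%, 3.0% and 4.05%. Its share was lowest at pH 4.0, and no pair of pH values overlapped. In CPM the row was at 14.6, 8.07 and 3.99 at pH 2.0, at 5.36, 3.51 and 3.58 at pH 4.0, and at 2.44, 2.25 and 1.85 at pH 6.0. Its fold change from pH 2.0 to pH 4.0 was -0.81 (SE 0.33, adjusted p = 0.0528 in limma), and the adjusted p ranged from 0.00173 to 0.255 over 21 other settings, being under 0.05 in 6 of them; with the mitochondrial sum held equal it was 0.296. Without pH 2.0 replicate C the fold change was -1.23 (adjusted p = 0.00173), and without pH 2.0 replicate A -0.41 (adjusted p = 0.190).

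YalifMp21 also held a smaller share at pH 4.0, with 9.91%, 9.66% and 9.44% against 11.3%, 11.6% and 12.3% at pH 2.0 and 11.5%, 12.5% and 12.7% at pH 6.0. YalifMp08 went the other way between the acidic groups, from 0.991%, 0.926% and 1.2% at pH 2.0 to 1.61%, 1.42% and 1.65% at pH 4.0. Its pH 6.0 libraries overlapped both groups at 1.69%, 1.06% and 1.95%. The YalifMp08 shares rest on 12 to 53 reads. In all, the shares of 6 of the 14 rows did not overlap between pH 4.0 and pH 2.0: YalifMp02 and YalifMp21 were lower and YalifMp03, YalifMp07, YalifMp08 and YalifMp25 higher at pH 4.0. When all genes were expressed relative to the same sum, 10.4% did not overlap in that comparison. That share is no yardstick for the rows: the YalifMp sum varied 3.49-fold within pH 2.0, and dividing other genes by it carries this variation into them, whereas it cancels in the rows' own shares. Between pH 6.0 and pH 2.0 the shares of 2 rows did not overlap, YalifMp02 and YalifMp04, both lower at pH 6.0, against 57.2% of all genes. Both separations were narrow, 4.05% (27 reads) against 4.24% for YalifMp02 and 4.59% (52 reads) against 4.73% for YalifMp04. Between pH 6.0 and pH 4.0 the shares of 4 rows did not overlap, against 93.1% of all genes. YalifMp04 and YalifMp07 were lower and YalifMp02 and YalifMp21 higher at pH 6.0. Here the lower sum at pH 6.0 sets the other genes apart, so nothing is read from 57.2% or 93.1% either. The rows were compared so after their values had been seen, and no test is given. The highest single share of YalifMp26 was 3.0%, in pH 6.0 replicate C, against 0.785% to 1.64% in the other 8 libraries; it rests on 20 reads.

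**Figure D5:**
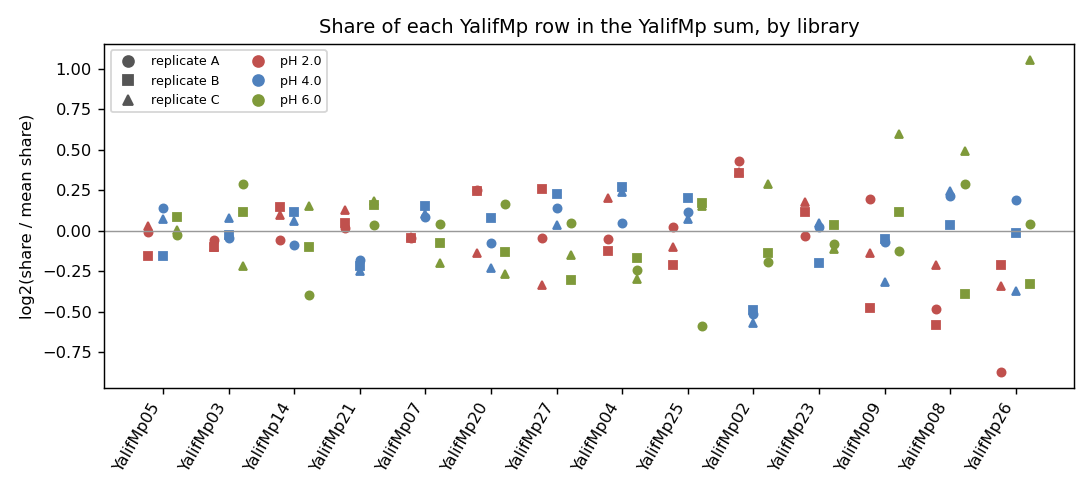
Share of each YalifMp row in the YalifMp sum of its library, as log2 of the share over its mean share, 1 point per library, coloured by pH and with shape for the replicate letter. For YalifMp02 the 3 points at pH 4.0 (2.23% to 2.36%) are below the others, while the points of the rows with the fewest reads, at the right, are the most scattered.

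A list of 7 nuclear loci was set beside the mitochondrial rows. It was drawn up from general knowledge of published locus tags as genes of the respiratory chain, and the data do not annotate them. From pH 2.0 to pH 6.0, 2 of the 7 were called higher, 4 lower and 1 was not called (median log2 -0.25, against -0.04 for all genes). With 73.0% of all genes called, this count lies near the background and nothing is read from it about the list. The higher loci were YALI0F25135g (log2 1.74, SE 0.09) and YALI0D09933g (log2 1.85, SE 0.21), and the lower ones ranged from -0.78 for YALI0F00924g (SE 0.06) to -0.25 for YALI0D00737g (SE 0.06). Between pH 4.0 and pH 6.0, 2 were lower, YALI0F00924g by 0.36 and YALI0F06050g by 0.27, and 5 were not called, with 51.5% of all genes called. Between pH 2.0 and pH 4.0, 2 were higher, 2 lower and 3 not called, with 63.4% of all genes called. Standard errors of these loci were 0.06 to 0.21 and those of the mitochondrial rows 0.25 to 0.44, and the lists were not tested against each other.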

How the data were processed

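Per the file headers, the authors deposited CPM scaled by edgeR's effective library size, a normalized signal per gene. The submitters' processing notes name edgeR, HTSeq, TopHat2 2.0.10, Trimmomatic 0.30 and bcl2fastq 1.8.4. Settings, genome build, annotation and use of strand in counting were not given in the sources used here, so overlapping or antisense genes are uncertain. All values (100% per library, tolerance 0.01 reads) were whole multiples of 1 read (0.0563 to 0.0779 CPM), from which reads were recovered, 12974822 to 17701766 per library.

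Rows with at least 1 CPM in at least 3 libraries were kept, and log2(CPM + 1) was tested with limma 3.58.1 under R 4.3.3, using its trend option, 1 mean per pH and 6 residual degrees of freedom, two-sided, adjusted by Benjamini-Hochberg over 6165 genes. On the recovered reads, edgeR 4.0.16 called 4512 genes between pH 6.0 and pH 2.0 and limma 4498; DESeq2 1.42.0 was a further alternative. The tests were tried on simulated data in which genes varied independently, with 1 spread setting for all genes and groups. The mitochondrial rows varied together and most at pH 2.0, so that trial does not show how the tests behave for them. The members, the list of nuclear loci and the tests were chosen with earlier results of these data known. Printed in every library are the 8 rows with the most CPM, the called extremes of each comparison and the rows called for the difference of steps; further values were added after they had been seen. Other alternatives were the pseudocount, the filter, the scaling, a replicate block, a fit of only the 2 groups compared and leaving out libraries.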

Additional observations from a re-analysis of the deposited data

How the results depend on the processing

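The direction of each called fold change held in every setting except scaling to an equal mitochondrial sum, which takes out what the rows share and gives the other genes, from which limma borrows spread, the variation of that sum. There, 0 rows were called in any comparison. Against pH 2.0 the pH 6.0 values became 0.17 (YalifMp03), 0.085 (YalifMp05), 0.08 (YalifMp21), 0.029 (YalifMp25) and 0.028 (YalifMr31). Against pH 4.0 they became 0.18 (YalifMp03), 0.12 (YalifMp05), 0.069 (YalifMp08), 0.11 (YalifMp20), 0.44 (YalifMp21), 0.09 (YalifMp23), 0.33 (YalifMp26) and 0.019 (YalifMr31), and the difference of steps of YalifMr31 was 0.01. No direction was counted for an uncalled value.

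At an adjusted p under 0.01, the rows called numbered 8 for pH 6.0 against pH 2.0, 6 for pH 6.0 against pH 4.0, 0 for the difference of steps and 8 in the F test. A filter at 10 CPM left 9 rows to test, with 9, 9, 2 and 9 called. For pH 4.0 against pH 2.0, 1 row (YalifMp02) was called lower with equal totals, equal totals of the other rows, the replicate block, edgeR and DESeq2, and 1 (YalifMp08) higher under quantile normalization; the cause was not tested. The difference of steps called 2 rows with either scaling to totals, 8 under quantile normalization and 10 with the replicate block. With equal totals the median over all genes for pH 6.0 against pH 2.0 went from -0.04 to -0.25 (log2); 15 rows were then called lower.

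Same-letter libraries did not deviate together over all genes (r = -0.20 to 0.27 over 9 pairs, 3 of them above 0.1). Of the 9 libraries, 2 correlated best with their own letter. Over the 16 rows alone, r of the same pairs ran from -0.29 to 0.705, the highest for replicates C of pH 2.0 and pH 6.0. Each such r is taken across rows, so a shift shared by all 16 rows of a library drops out of it. It therefore cannot show whether the levels of the rows followed the letter. Replicate A was the highest library for 16 rows at pH 2.0, 16 at pH 4.0 and 12 at pH 6.0. The replicate block called 15 rows lower at pH 6.0 against each other pH. It is not a pairing given by the labels, and a batch shared by a letter was not tested for these rows. Leaving out 1 library at a time gave 10 to 16 rows for pH 6.0 against pH 2.0, 6 to 16 against pH 4.0, 0 to 2 lower and 0 to 1 higher for pH 4.0 against pH 2.0, 0 to 12 for the difference of steps and 8 to 16 in the F test. A group left with 2 libraries is assumed to vary like the others. Leaving out the 3 libraries A together, chosen after the data had been seen, gave 12 and 13 rows lower at pH 6.0 against pH 2.0 and pH 4.0.

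Without YalifMr30 the summed level was 721, 699.7 and 247 CPM in order of rising pH, and the share of reads 0.0795%, 0.0664% and 0.0234%. Over fits without 1 library the mean sum was 1705 to 2897, 1946 to 2425 and 705 to 888 CPM, and the mean share 0.188% to 0.319%, 0.190% to 0.227% and 0.0669% to 0.0842%.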
